A study of Homo sapiens with 7 samples.

Results

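Amino acid transporters of the plasma membrane are described here across 7 cultures of the human fibrosarcoma cell line HT1080, each measured on 1 Affymetrix U133 Plus 2.0 array. The 8 genes are SLC7A11, SLC7A5, SLC3A2, SLC7A1, SLC38A1, SLC38A2, SLC1A4 and SLC1A5, and their members on the array are the 23 probe sets that the platform annotation assigns to one of them alone, of 54675 probe sets and 19775 genes in all. The series asked how gene expression in these cells differs after plant polyphenols or after serum of patients who had taken pycnogenol, an extract of pine bark. A single compound was present for 2 h in 4 cultures. Catechin was given at 11.25 ng/ml, epicatechin and taxifolin each at 6.25 ng/ml, and the dose of resveratrol was 2195 ng/ml. Another culture held 5% pycnogenol-positive serum and another 5% control serum, both for 2 h, and the last was untreated. For all treated cultures the medium was exchanged a day after plating. The labels do not say whether the fresh medium held fetal bovine serum, who gave the control serum, or whether the untreated culture had the medium change or a solvent. Those steps may enter any contrast with the untreated culture, and the donors of both sera cannot be told apart from the pycnogenol itself. Growth medium in general held non-essential amino acids and L-glutamine, per the labels.

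Cells import amino acids through carriers with different substrates. SLC7A5 (LAT1), which exchanges large neutral amino acids such as leucine, and SLC7A11 (xCT), which takes up cystine in exchange for glutamate, each work as a light chain joined by a disulfide bond to the heavy chain SLC3A2 (CD98hc). SLC7A1 (CAT1) carries the cationic amino acids arginine and lysine, SLC38A1 and SLC38A2 (SNAT1 and SNAT2) carry glutamine and other small neutral amino acids together with sodium, and SLC1A4 and SLC1A5 (ASCT1 and ASCT2) exchange neutral amino acids such as alanine, serine, cysteine and, for SLC1A5, glutamine. When amino acids run short or the endoplasmic reticulum is stressed, the transcription factor ATF4 is translated more and is known to raise transcription of many of these carriers through C/EBP-ATF composite elements, while SLC7A11 is also a target of the antioxidant factor NRF2.

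Promoter sequences were at hand in a RefSeq table of build GRCh38.p14, which covers 250 bases before to 50 after a gene start, for 7 of the 8 genes and 13 starts. SLC7A11 had no entry there, so its promoter was not searched for any motif. The sequences are shown for the 5 starts that hold the letters of the C/EBP-ATF composite element, TGATGNAA on either strand. The element was chosen with earlier results of these data known, and the remaining windows are not shown. Each runs 5′ to 3′ on the gene's strand, and capitals mark the match.
SLC3A2, chr11:62881449-62881748 (+ strand): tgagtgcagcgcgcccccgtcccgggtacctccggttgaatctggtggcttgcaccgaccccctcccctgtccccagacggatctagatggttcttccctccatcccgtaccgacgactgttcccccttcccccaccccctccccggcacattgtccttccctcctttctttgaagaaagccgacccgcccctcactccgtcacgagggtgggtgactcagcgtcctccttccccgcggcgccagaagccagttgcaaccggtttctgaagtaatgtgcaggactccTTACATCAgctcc
SLC7A1, chr13:29595639-29595938 (- strand): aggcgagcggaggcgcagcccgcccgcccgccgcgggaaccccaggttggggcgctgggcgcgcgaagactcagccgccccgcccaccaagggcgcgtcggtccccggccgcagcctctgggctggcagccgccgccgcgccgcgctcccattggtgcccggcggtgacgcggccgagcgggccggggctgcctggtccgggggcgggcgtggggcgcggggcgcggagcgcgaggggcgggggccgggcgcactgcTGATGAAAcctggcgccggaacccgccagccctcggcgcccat
SLC38A1, chr12:46266467-46266766 (- strand): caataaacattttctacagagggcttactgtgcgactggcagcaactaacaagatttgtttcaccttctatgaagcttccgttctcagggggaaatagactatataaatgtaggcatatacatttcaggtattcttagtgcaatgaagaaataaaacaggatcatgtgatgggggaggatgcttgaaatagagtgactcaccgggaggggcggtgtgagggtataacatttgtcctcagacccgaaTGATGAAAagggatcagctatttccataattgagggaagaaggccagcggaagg
SLC1A4, chr2:64989149-64989448 (+ strand): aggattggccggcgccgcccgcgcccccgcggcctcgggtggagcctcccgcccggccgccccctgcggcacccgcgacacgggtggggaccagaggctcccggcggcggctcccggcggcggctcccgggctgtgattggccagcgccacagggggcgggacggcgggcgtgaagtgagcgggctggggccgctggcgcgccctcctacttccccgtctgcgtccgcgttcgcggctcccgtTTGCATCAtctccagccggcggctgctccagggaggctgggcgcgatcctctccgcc
SLC1A5, chr19:46784765-46785064 (- strand): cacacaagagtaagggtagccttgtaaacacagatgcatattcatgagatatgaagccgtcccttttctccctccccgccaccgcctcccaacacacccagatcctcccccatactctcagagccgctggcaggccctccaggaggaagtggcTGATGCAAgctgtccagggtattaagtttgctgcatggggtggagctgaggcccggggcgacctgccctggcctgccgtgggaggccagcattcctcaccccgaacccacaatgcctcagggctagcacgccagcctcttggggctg
Among the 34943 windows of this length in the table, 3.62% held the element, and a gene with several starts has more chances to hold it. The match began 7 bases before the start in SLC1A4, 4 before it in SLC38A1 and 97 before it in SLC1A5, and 8 bases after it in SLC7A1 and 38 after it in SLC3A2. The antioxidant response element, searched as TGACNNNGC on either strand, lay in 4 of the 13 windows, of SLC7A5, SLC3A2, SLC7A1 and SLC1A5, against 13.3% of all windows. The MYC E-box CACGTG lay in 2 windows, of SLC7A5 and SLC1A5, against 7.23% of all. No searched letters of these 3 kinds overlapped one another in the 5 windows shown. A match is a description of letters and was not tested for binding.

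The values were deposited MAS5 signals on a linear scale, and each gene was read from its brightest probe set. Arrays without test serum differed from one another with an SD of log2 differences over the 9888 genes above the signal filter of 0.235 to 0.282 in 10 pairs, whereas setting either serum array beside one of those 5 gave 0.323 to 0.387, so both serum arrays stood apart. With 1 array per group there is no replicate error and no test, and the number of arrays limits the precision. The signal filter was the median of all genes, 269, no detection calls were at hand, and signals of different genes cannot be ranked because probe sets differ in response. Of the mesenchymal markers 11 of 12 lay above the filter, of the epithelial ones 1 of 8 (KRT8), and of the endothelial ones 0 of 5. Summed blood cell markers, 1 of 5 of them above the filter, read 677 to 950 in the serum arrays, against 583 to 759 in the other 5, and their part in the results was not tested. The 1 was HBB, at 522 with pycnogenol-positive and 382 with control serum, against 227 to 413 in the other 5, which overlapped, and it was past 2-fold for pycnogenol-positive serum against untreated, at 1.20. The ratios of 3′ to 5′ control probe sets, a sign of RNA integrity, were 1.09 with pycnogenol-positive and 1.06 with control serum for GAPDH, and 2.82 and 2.55 in the same order for ACTB, inside the ranges of 0.961 to 1.12 and 2.40 to 4.02 in the other 5.

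All 8 transporter genes read lower in both serum cultures than in each of the 5 cultures without test serum. Over all 9888 genes, 16.1% showed that separation downward, and 13.5% the same upward. The 8 genes were chosen with earlier results of these data known, so setting them beside these shares is a description and not a test. The geometric mean of both serum arrays was 0.498 times that of the other 5 for SLC7A11, the cystine carrier, and the log2 difference of these means was -0.97 for SLC1A4, the alanine, serine and cysteine carrier. SLC7A11 was the 1 gene lower by at least 2-fold, where 0.597% of all genes were, and it and SLC1A4 were the 2 lower by at least 1.5-fold, where 3.16% were. The other 6 lay between -0.53 (SLC38A1) and -0.27 (SLC1A5) on the log2 scale. The median of the 8 was -0.42, where the median of all genes was -0.010. When each array was centred on its median instead, which moved the median of all genes above the filter to 0.18 for control serum against untreated, 3 of the 8 (SLC7A11, SLC3A2 and SLC1A4) were still separated, against 6.12% of all genes. Cell number and RNA amount per cell cannot be told apart in such bulk samples.

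**Figure D1:**
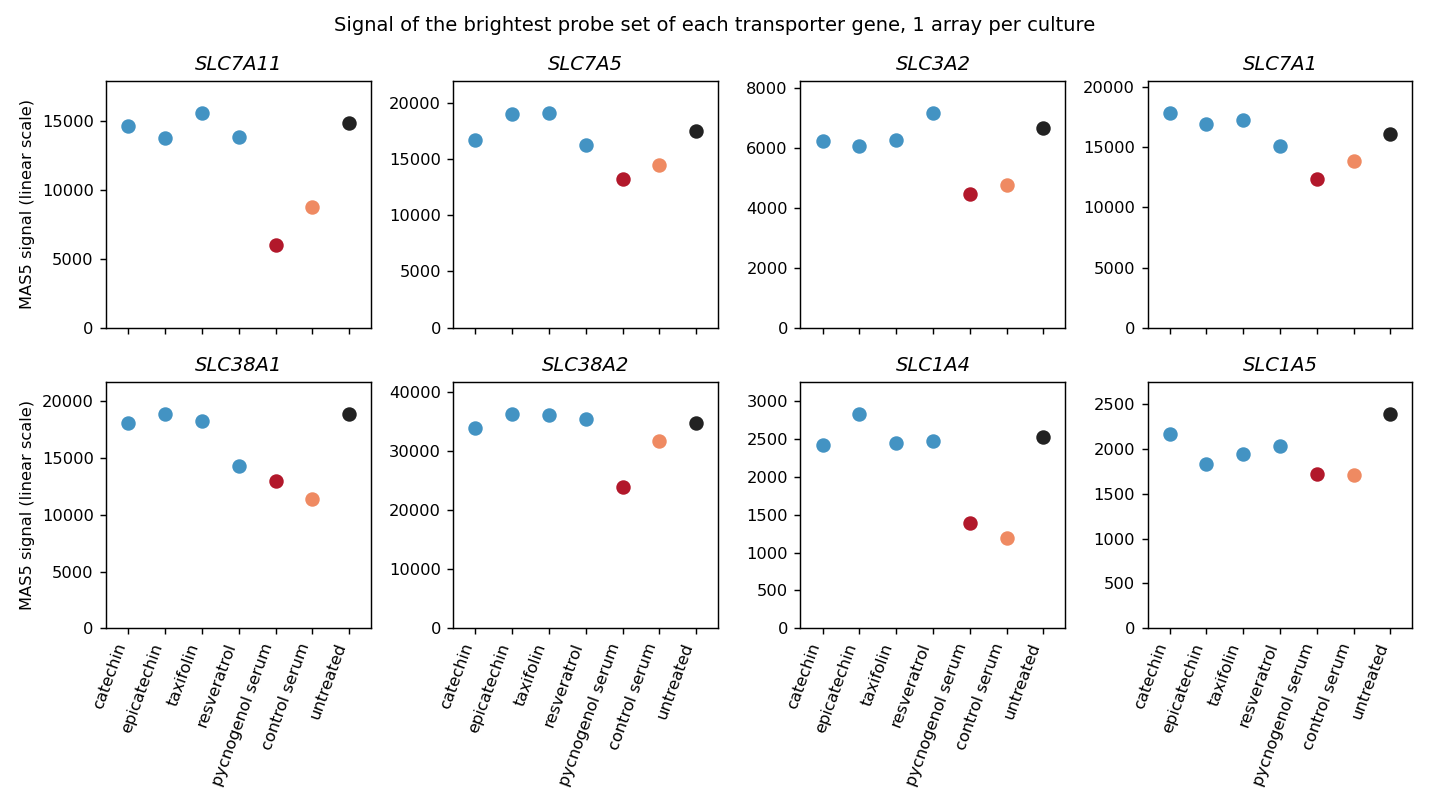
Signal of the brightest probe set of each transporter gene (linear MAS5 units, axes from 0) in the 7 cultures, 1 point per array, with compounds in blue, pycnogenol-positive serum in dark red, control serum in orange and the untreated culture in black. In all 8 panels both serum points lie below the other 5, with the widest gaps for SLC7A11 and SLC1A4 on the log2 scale.

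Within the CD98 complexes, SLC7A11 read 5982 with pycnogenol-positive serum and 8732 with control serum, against 14601 with catechin, 13735 with epicatechin, 15535 with taxifolin, 13845 with resveratrol and 14856 untreated. The 5 cultures without test serum spanned 0.18 on the log2 scale, and the higher serum value lay 0.65 below the lowest of them. Its second probe set, 217678_at, read 5706 and 6170 in pycnogenol-positive and control serum, against 10261 to 12777 in the other 5. Its dimmest probe set, 207528_s_at, read 476 and 683, against 704 to 978, a gap of 0.04. The leucine exchanger SLC7A5, with a single probe set, read 13220 with pycnogenol-positive serum and 14518 with control serum, against 16694 with catechin, 19067 with epicatechin, 19104 with taxifolin, 16277 with resveratrol and 17492 untreated. Its serum values lay below the others by a gap of 0.17, less than the 0.23 that the 5 spanned. The shared heavy chain SLC3A2 read 4466 and 4768 in the pycnogenol-positive and control serum cultures, against 6221 with catechin, 6059 with epicatechin, 6262 with taxifolin, 7154 with resveratrol and 6676 untreated. Here the gap of 0.35 exceeded the span of 0.24 over the 5.

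The cationic carrier SLC7A1 read 12394 with pycnogenol-positive serum and 13900 with control serum, against 17847 with catechin, 16932 with epicatechin, 17258 with taxifolin, 15078 with resveratrol and 16074 untreated. The gap was 0.12, within a span of 0.24. Further probe sets of the gene, 212290_at and 212292_at, were lower in serum too, at 1993 and 2239 against 2613 to 4038, and at 332 and 402 against 439 to 671. The remaining 2, 206566_at and 215979_s_at, lay under the signal filter and did not separate the serum cultures.

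Of the sodium-coupled glutamine carriers, SLC38A1 read 12941 with pycnogenol-positive serum and 11364 with control serum, against 18074 with catechin, 18818 with epicatechin, 18190 with taxifolin, 14267 with resveratrol and 18833 untreated. Resveratrol was the lowest of the 5 and stood close to the serum cultures, with a gap of 0.14. On 218237_s_at, a second probe set, resveratrol read 8865 among 8761 to 9946 in the 5, while serum gave 6270 and 7090. SLC38A2 read 23834 with pycnogenol-positive serum and 31634 with control serum, against 33894 with catechin, 36217 with epicatechin, 36037 with taxifolin, 35469 with resveratrol and 34725 untreated. For this gene the control serum value was close to the rest and the pycnogenol-positive value was the one far below, and the same held on 218041_x_at and 220924_s_at. On 220924_s_at the control serum value, 19330, overlapped the 5, as it lay above the 18864 of catechin. Probe sets with the suffix _x_at can share probes with similar transcripts, and 2 of the 3 for SLC38A2 have it.

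Among the neutral exchangers, SLC1A4 read 1393 with pycnogenol-positive serum and 1194 with control serum, against 2420 with catechin, 2822 with epicatechin, 2438 with taxifolin, 2470 with resveratrol and 2518 untreated. The gap to the lowest of the 5 was 0.80 and exceeded their span of 0.22. On 212810_s_at the serum values were 433 and 787, against 1246 to 1797, and on 212811_x_at 1052 and 976, against 1751 to 2094. On the dim 209611_s_at they were 240 and 266, against 273 to 453, a gap of 0.035 beside a span of 0.73 over the 5. SLC1A5, the glutamine exchanger, read 1723 with pycnogenol-positive serum and 1701 with control serum, against 2159 with catechin, 1826 with epicatechin, 1941 with taxifolin, 2023 with resveratrol and 2383 untreated. It had the narrowest separation of the 8, with a gap of 0.08 and a span of 0.38 over the 5, and the untreated culture was its highest.

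Over all members, 19 of the 23 probe sets passed the signal filter, and 18 of the 19 read lower in both serum cultures than in all 5 others. The exception was 220924_s_at of SLC38A2. Among all 17655 probe sets above the filter with 1 gene, 14.8% did so. Probe sets of 1 gene share its transcripts and are not separate evidence. The 4 probe sets under the filter, 2 for SLC7A1 and 1 each for SLC38A1 and SLC1A4, showed no such separation.

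**Figure D2:**
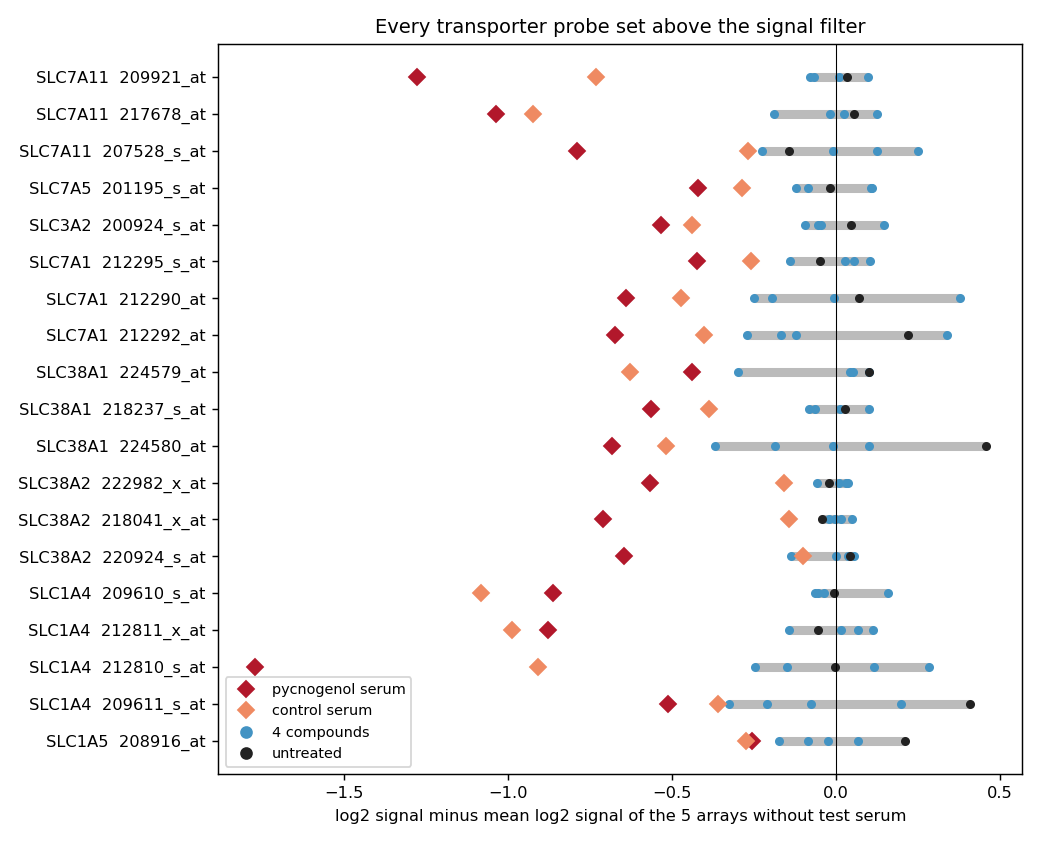
Log2 signal of the 19 transporter probe sets above the filter, as the difference from the mean of the 5 arrays without test serum (x axis), with diamonds for pycnogenol-positive serum (dark red) and control serum (orange), circles for compounds (blue) and untreated (black), and a grey bar over the range of the 5. Both diamonds lie left of the bar in 18 of 19 rows, and the control serum diamond of SLC38A2 220924_s_at lies inside it.

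With control serum set against the untreated culture, SLC1A4 was lower by at least 2-fold, at -1.08, which 1 of 8 transporters and 0.758% of all genes reached. SLC7A11 at -0.77 and SLC38A1 at -0.73 were lower by at least 1.5-fold as SLC1A4 was, making 3 of the 8, against 4.66% of all genes. SLC1A5 and SLC3A2 both lay at -0.49, SLC7A5 at -0.27, SLC7A1 at -0.21 and SLC38A2 at -0.13, the last of which turned to 0.03 with median centring. The median of the 8 was -0.49, where that of all genes was 0.0076. SLC1A4 did not reach 2-fold with median centring (-0.91), as an average over its probe sets (-0.91) or on its dim 244377_at (-0.87), the 1 probe set of the gene without an _x_at or _s_at suffix.

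Pycnogenol-positive serum set against control serum gave differences of both signs. None of the 8 reached 2-fold, where 0.536% of all genes did in either direction. Of the 8, 5 lay below 0 and 3 above, where 48.4% of all genes lay below 0. The median was -0.11 against 0.0083 for all genes. SLC7A11 at -0.55 and SLC38A2 at -0.41 lay furthest below, followed by SLC7A1 at -0.17, SLC7A5 at -0.14 and SLC3A2 at -0.09. SLC7A11 was lower on all 3 of its probe sets, at -0.55, -0.11 and -0.52, although the middle value, from the bright 217678_at, was small. SLC38A2 was lower on all 3 of its own, at -0.41, -0.57 and -0.55. SLC38A1 at 0.19 and SLC1A4 at 0.22 lay above 0 on the brightest probe set, but SLC38A1 lay at -0.18 and -0.16 on the next ones and SLC1A4 at 0.11, -0.86 and -0.15, so their direction depended on the probe set. SLC1A5 differed by 0.02, and by -0.04 with median centring. In total 15 of the 19 probe sets above the filter read lower with pycnogenol-positive than with control serum, against 49.3% of all such probe sets.

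Against the untreated culture, pycnogenol-positive serum gave SLC7A11 at -1.31, the 1 transporter lower by at least 2-fold in that comparison, where 1.51% of all genes were. With SLC1A4 at -0.85 it made 2 that were lower by at least 1.5-fold, against 6.08% of all genes. Next came SLC3A2 at -0.58, SLC38A1 and SLC38A2 at -0.54, SLC1A5 at -0.47, SLC7A5 at -0.40 and SLC7A1 at -0.38, with a median of -0.54 and 0.017 for all genes. This comparison shares its arrays with the preceding pair, as it is their sum. The lowest of the 7 signals belonged to pycnogenol-positive serum for 5 genes and to control serum for SLC38A1, SLC1A4 and SLC1A5.

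**Figure D3:**
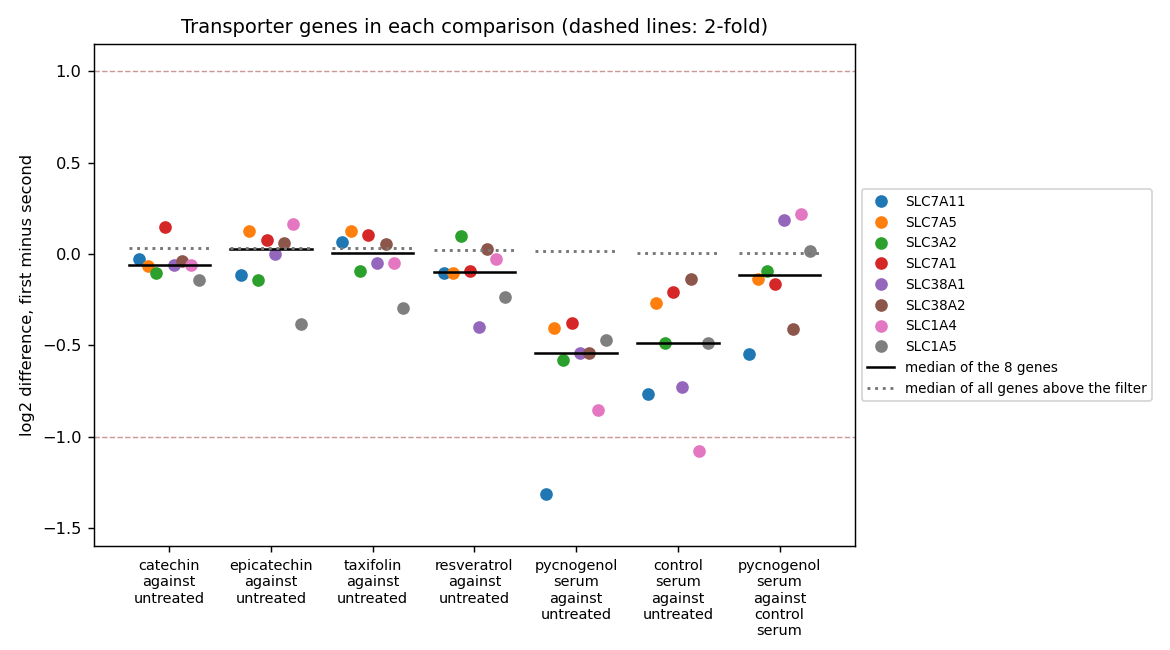
Log2 differences (y axis, first culture minus second) of the 8 transporter genes in 7 comparisons, 1 point per gene, with a solid line at their median, a dotted line at the median of all genes above the filter and dashed lines at 2-fold. The compounds scatter around 0, with medians of -0.10 to 0.03, whereas pycnogenol-positive and control serum against untreated have medians of -0.54 and -0.49.

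The 4 compounds gave small differences from the untreated culture. None reached 2-fold with any compound, where 0.455% of all genes reached 2-fold in either direction with catechin, 0.314% with epicatechin, 0.465% with taxifolin and 0.728% with resveratrol. The medians were -0.058, 0.030, 0.0035 and -0.097 in that order, where those of all genes were 0.035, 0.032, 0.032 and 0.025. Of the 8, 7, 4, 4 and 6 lay below 0 in the same order, against 42.4%, 42.7%, 42.8% and 45.2% of all genes. With catechin SLC7A11, SLC7A5, SLC38A1, SLC38A2 and SLC1A4 changed sign with median centring. The values furthest below 0 were mostly those of SLC1A5, which lay at -0.14, -0.38, -0.30 and -0.24 with the 4 compounds, and these share the untreated array, where its signal was the highest. SLC38A1 lay at -0.40 with resveratrol, but at -0.09 on 218237_s_at and at -0.82 on the dimmer 224580_at, where all 4 compounds lay below the untreated value of 2332. SLC7A1 at 0.15 with catechin turned to -0.21 with the mean of its probe sets, and SLC1A4 at 0.16 with epicatechin to -0.24. In the order of compounds above, SLC1A4 lay at -0.49, -0.62, -0.21 and -0.73 on the dim 209611_s_at, but at 0.07, 0.17, 0.12 and -0.09 on 212811_x_at. On the dim 212292_at SLC7A1 lay at -0.34, -0.49, -0.39 and 0.12.

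Epicatechin, a flavan-3-ol, and taxifolin, a dihydroflavonol, were the 1 pair of compounds given at the same dose and time. Set against taxifolin, epicatechin differed by -0.18 for SLC7A11 and 0.21 for SLC1A4, and the other 6 lay between -0.09 and 0.05. None reached 2-fold, where 0.324% of all genes did, and without replicates no interval can be given, so likeness is not shown. Catechin, the stereoisomer of epicatechin, was given at another dose, as was the stilbene resveratrol, and their values stand beside the others without comparison.

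Most other genes of the amino acid response also read lower in the serum cultures than in those without test serum. Of 30 genes of that response and of ATF4, all of them above the filter, 25 read lower in both serum cultures than in all 5 others and 0 read higher, against 16.1% and 13.5% of all genes. The list was chosen with earlier results of these data known, so its counts beside those shares are a description and not a test. ATF3, PHGDH, ATF5, EIF2AK4 and EIF2AK3 were not separated. With median centring 16 read lower, against 6.12% of all genes. With control serum against untreated, 28 of the 30 lay below 0 with a median of -0.29, against 48.7% of all genes below 0. EIF2AK4 at 0.017 and EIF2AK3 at 0.086 lay above 0. Among the 30, 4 were lower by at least 2-fold, against 0.758% of all genes. These were TRIB3, a pseudokinase that feeds back on ATF4, at -1.31, ALDH1L2, a mitochondrial folate enzyme, at -1.17, the lipoprotein receptor gene VLDLR at -1.12 and CTH, which makes cysteine, at -1.06. The 4 became 2 with median centring and 5 without _x_at and _s_at probe sets. With pycnogenol-positive serum against untreated, 12 of the 30 were lower by at least 2-fold, against 1.51% of all genes. They were DDIT4 at -3.25, CHAC1 at -3.16, VLDLR at -2.11, TRIB3 at -1.88, DDIT3 (CHOP) at -1.87, CTH with 1742 against 5275 in signal, SESN2 at -1.58, CEBPG at -1.44, ALDH1L2 at -1.32, NUPR1 at -1.13, PCK2 at -1.01 and ATF3, whose signal was 722 with pycnogenol-positive serum and 1447 untreated. The 12 became 10 with median centring and 11 with quantile or loess scaling. The ATF4 mRNA read 23348 with pycnogenol-positive and 33855 with control serum, against 37361 to 45462 in the 5 without. With pycnogenol-positive serum against control serum, 27 of the 30 lay below 0 with a median of -0.24, against 48.4% of all genes below 0. CHAC1, which degrades glutathione, at -2.91, DDIT4, which restrains mTORC1, at -2.71 and the stress factor ATF3, with signals of 722 and 1444, were lower by at least 2-fold. Of all genes 0.314% were, and no transporter was. The 3 became 5 with median centring and 2 with quantile scaling or without _x_at and _s_at probe sets. CHAC1 read 143 with pycnogenol-positive serum, under the signal filter, and 1077 with control serum. Without detection calls the 143 is not shown to be above background, and both CHAC1 differences, -2.91 and -3.16, rest on it. ASNS, asparagine synthetase and a classical ATF4 target, differed by less, at -0.25 and -0.23 in the control serum and the pycnogenol-positive serum comparison.

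Targets of NRF2, which is known to raise SLC7A11 as well, lay on both sides of 0. They were listed together with NFE2L2, the gene of NRF2, and KEAP1, the gene of its repressor. Of the 14 listed genes above the filter, 4 read higher in both serum cultures than in all 5 others, against 13.5% of all genes. These were HMOX1, GCLM, SRXN1 and KEAP1. The 1 that read lower, against 16.1% of all genes, was NFE2L2 itself. With median centring 8 read higher, but so did 26.4% of all genes, and 0 read lower. With the mean of all probe sets 7 read higher and 0 lower, against 11.5% and 14.5% of all genes. With control serum against untreated, 8 of the 14 lay above 0 and 6 below, with a median of 0.098, where 48.7% of all genes lay below 0. These counts depended on the setting. With median centring, where the median of all genes was 0.18, 14 lay above 0 and 0 below. With the mean of all probe sets 11 lay above 0 and 3 below. In the same comparison SLC7A11 lay at -0.77. HMOX1, heme oxygenase, was the 1 past 2-fold, at 1.71, where 0.445% of all genes were higher by that much. SRXN1, sulfiredoxin, lay at 0.58 and GCLM, a subunit of the first enzyme of glutathione synthesis, at 0.42. With pycnogenol-positive against control serum, where SLC7A11 lay at -0.55 and 48.4% of all genes lay below 0, 9 of the 14 lay below 0 and 5 above. Those below included HMOX1 at -0.19, TXNRD1, a thioredoxin reductase, at -0.22 and NQO1, a quinone reductase, at -0.15.

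Other plasma membrane carriers differed in direction from one another. Of 25 on the array, 8 passed the filter, and 2 of these read lower and 2 higher in both serum cultures than in all 5 others, against 16.1% and 13.5% of all genes. With median centring 0 read lower and 3 higher, against 6.12% and 26.4% of all genes. With the mean of all probe sets 0 read lower and 3 higher too, against 14.5% and 11.5% of all genes. SLC7A2, a second cationic carrier, lay at 0.77 with control serum against untreated and read 1991 with pycnogenol-positive and 2751 with control serum, against 1595 to 1897 in the 5. SLC7A6, another light chain of SLC3A2, was higher by at least 2-fold with pycnogenol-positive serum against untreated, at 1.01, where 0.728% of all genes were, and it read 3102 with pycnogenol-positive and 2210 with control serum, against 1501 to 2255, so the groups overlapped through catechin. With the mean of all probe sets 0 of the 8 were higher by at least 2-fold in that comparison. SLC6A15, a neutral amino acid carrier, lay at -0.35 with control serum. Among 13 genes of lysosomal carriers and mTORC1 sensing, 2 read lower in both serum cultures than in all others and 0 higher. Of all genes 16.1% and 13.5% did, so the count of lower ones was near that share. The 2 were SESN2, a leucine sensor that is also in the ATF4 list, and the lysosomal arginine sensor SLC38A9. SLC38A9 read 879 and 886 in pycnogenol-positive and control serum, against 1065 to 1388. Of 10 genes of MYC and the early serum response, 0 read lower in both serum cultures and 3 read higher, namely MAX, NCL and SRF, against 16.1% and 13.5% of all genes. The 3 became 5 with median centring, where 26.4% of all genes read higher. They became 2 with quantile scaling (13.5% of all genes), loess scaling (14.0%) or without _x_at and _s_at probe sets (12.9%). When the probe sets of a gene were averaged, 1 read higher, against 11.5% of all genes. MYC itself read 4560 and 6650, against 6147 to 7174. EGR1, an immediate early factor, lay at -1.44 with pycnogenol-positive against control serum, where 0.314% of all genes were lower by at least 2-fold. It read 175 with pycnogenol-positive serum, under the signal filter, and 475 with control serum. Without detection calls the 175 is not shown to be above background. Of the 10 genes 1 was lower by at least 2-fold in that comparison, and 0 were with the mean of all probe sets.

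**Figure D4:**
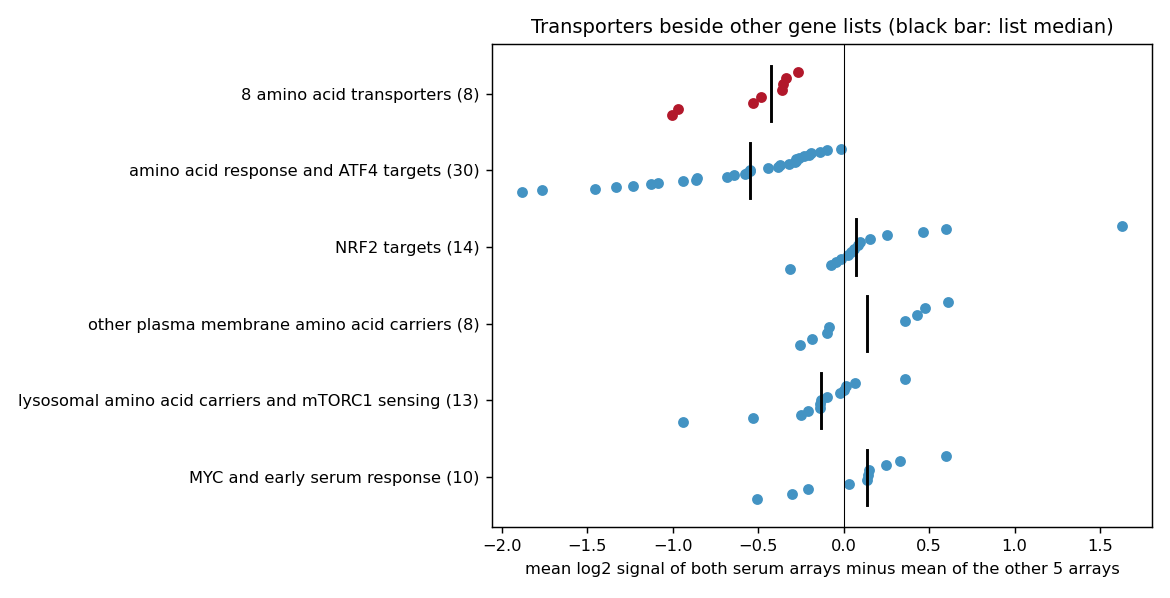
Mean log2 signal of both serum arrays minus the mean of the other 5 arrays (x axis), 1 point per gene above the filter, for the 8 transporters (red) and 5 other lists (blue, number of genes in brackets), with a black bar at each median. The transporters, median -0.42, and the ATF4 list, median -0.55, lie wholly below 0, while the medians of the other 4 lists run from -0.13 to 0.14.

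Likeness of pattern was read for SLC7A11 and SLC1A4, whose signals spanned at least 2-fold over the 7 arrays, among 684 other genes above the filter with such a span. Over these 7 arrays the Pearson correlation of log2 signal with SLC7A11 was highest for MMP16, a membrane-type metalloprotease (0.992), LINC02806 (0.992) and CCNG2, a cyclin of non-dividing cells (0.991). For SLC1A4 it was highest for ANKRA2 (0.992), the sterol enzyme gene MSMO1 (0.990) and ECM2 (0.987). MMP16 read 774 with pycnogenol-positive and 1183 with control serum, against 1667 to 1968 in the 5, and ANKRA2 read 1150 and 1032, against 2481 to 2879. The first 3 genes were lowest with pycnogenol-positive serum and the second 3 with control serum, as the transporter they resemble was. Because the genes were chosen by their correlation over these arrays, this order is not separate evidence of likeness. All these values share the same 7 arrays, of which the 2 serum arrays stand apart from the other 5.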

How the data were processed

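The deposited table holds 1 signal intensity per probe set and array, which the authors computed with MAS5 per the submitters' processing notes, and the version is not given in the sources used here. Every array had a mean of 1000 once the top and bottom 2% of signals were set aside. The platform annotation gave 41097 probe sets 1 gene, 1801 several genes (not used) and 11777 none. Old symbols were updated with a RefSeq table. Signals under the 25th percentile, 34.9, were raised to it, log2 values were taken, and the brightest probe set on average stood for its gene. Only genes whose mean reached the median over genes entered the comparisons. Differences are the first culture minus the second, and a gene was called at 2-fold. Each group held 1 array, so no test was made. The 8 transporters, the other gene lists and the motifs were chosen with earlier results of these data known. All 8 members are named, from each list those past 2-fold in a comparison of 2 cultures (otherwise the largest differences), with further list genes chosen after their values were seen, and for likeness the 3 highest correlations. The steps were tested on simulated data. Alternatives were quantile, loess (span 0.3) and median scaling, other floors, a filter at the 75th percentile, other readings of probe sets, other folds and other references. Python 3.11.15, numpy 2.4.6, pandas 2.3.3 and statsmodels 0.14.6 were used.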

Additional observations from a re-analysis of the deposited data

How the results depend on the processing

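With 1 array per group no spread of a median over the 8 transporters can be given, so its range over the alternatives stands alone. The median log2 difference ran from -0.51 to -0.32 with control serum against untreated, from -0.60 to -0.43 with pycnogenol-positive serum against untreated and from -0.17 to -0.11 with pycnogenol-positive against control serum. For catechin, epicatechin and taxifolin against untreated the range crossed 0. The number of transporters with both serum cultures below the other 5 was 3 with median centring, 7 without _x_at and _s_at probe sets, where SLC1A4 was read from a probe set under the filter and 3 genes (SLC7A5, SLC3A2 and SLC38A2) have no other probe sets and stayed as they were, and 8 under the other 5 settings. These settings for the separation were chosen after seeing the data, as was the mean of the 5 arrays without test serum in place of the untreated one, which gave medians of -0.49 for pycnogenol-positive and -0.36 for control serum. The number past 2-fold was 1 in each of 3 comparisons. With control serum against untreated it was 0 with median centring, the mean of all probe sets, no _x_at and _s_at probe sets, the 75th percentile filter (which left out SLC1A4 and SLC1A5) and a 3-fold threshold, and 3 at 1.5-fold. With pycnogenol-positive serum against untreated it was 2 with the mean of all probe sets, without _x_at and _s_at probe sets and at 1.5-fold, and 0 at 3-fold. For the mean of both serum arrays it was 0 with median centring, the mean of all probe sets and a 3-fold threshold, and 2 at 1.5-fold. With taxifolin it was 1 without _x_at and _s_at probe sets, from the SLC1A4 probe set under the filter. The causes were not tested beyond what each setting leaves out. No paired analysis was possible because each group held 1 array. Without detection calls, signals near the filter are not shown to be above background.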
